A study of Mus musculus with 11 samples.

Results

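The 8 mature microRNAs (miRNAs) described here were mmu-miR-124-3p, mmu-miR-124-5p, mmu-miR-9-5p, mmu-miR-9-3p, mmu-miR-137-3p, mmu-miR-138-5p, mmu-miR-218-5p and mmu-miR-129-5p (written below without mmu, the mark for mouse), which are known to be enriched in neurons or in the neural lineage. They were taken by name from the 1907 mouse miRNA names in the count tables, by a rule that sets no threshold on a measured value, although earlier results of these data were known when they were chosen. Small RNA was sequenced from the brain cortex of male Balb/cOlaHsd mice aged 3 months, taken 3 days after surgery. The 6 Sham samples were labelled cortex, and in the study's methods the artery of these mice was exposed and lifted but not closed. The 5 pMCAO samples came from mice with permanent occlusion of the left middle cerebral artery, and were labelled peri-ischemic cortex, the tissue around the infarct that had been dissected away from the lesion core. The names under which both groups were deposited carry the word vehicle, with no agent, dose or route stated in the sources used here, and no genetic change is given for either group. Brains were perfused before collection, and the occlusion and any difference in the piece of cortex taken cannot be told apart. The libraries were made from whole tissue, so neuronal origin could not be checked within these samples, and a lower level from fewer neurons and a lower level per neuron cannot be told apart.

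A miRNA is cut from a hairpin precursor, and either strand of the hairpin, the 5p or the 3p arm, can be loaded into an Argonaute protein, where it lowers the stability and translation of messenger RNAs that pair with its seed, the bases near its 5′ end. miR-124 is the best known miRNA of differentiated neurons and represses messenger RNAs of non-neuronal cells, among them that of the splicing repressor Ptbp1. miR-9 acts in neural progenitors and neurons, and its arms are known to target different subunits of the REST repressor complex, which keeps neuronal genes silent elsewhere. miR-137 and miR-138 are known for roles in synapses and dendritic spines, miR-218 for its role in motor neurons, and miR-129-5p for repression of neuronal messenger RNAs such as that of the potassium channel Kcna1.

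The mature sequences are shown because the seed sets which messenger RNAs each miRNA can pair with. They were taken from RefSeq for GRCm38.p6, the assembly that mm10 is made from, and 6 of the 8 names were matched. miR-124-3p and miR-124-5p were not matched. Capitals mark the seed, bases 2 to 8 counted from the 5′ end.
miR-9-5p: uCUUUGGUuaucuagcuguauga
miR-9-3p: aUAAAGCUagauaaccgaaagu
miR-137-3p: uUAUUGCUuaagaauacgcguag
miR-138-5p: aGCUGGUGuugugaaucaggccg
miR-218-5p: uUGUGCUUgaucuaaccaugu
miR-129-5p: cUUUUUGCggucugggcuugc

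The 6 sequences held 6 distinct seeds, so none of these members shared its seed with another. Among the 1679 mouse mature names in the same table, only miR-7002-3p, which shares the seed of miR-218-5p, had a seed in common with any of them. Their lengths were 21 to 23 bases, so their levels are compared below without scaling by length. GC content was 31.8% in miR-9-3p, 34.8% in miR-9-5p and in miR-137-3p, 38.1% in miR-218-5p, 56.5% in miR-138-5p and 57.1% in miR-129-5p.

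Most of these miRNAs come from more than 1 hairpin, and the mature arm then cannot be assigned to a locus. All positions are on GRCm38.p6, and overlaps with genes come from GENCODE. miR-9 has 3 hairpins, Mir9-1 at chr3:88215598-88215686 in an intron of the non-coding gene Gm3764, Mir9-2 at chr13:83738814-83738885 in an exon of the non-coding gene C130071C03Rik, and Mir9-3 at chr7:79505264-79505353 in an intron of its host Mir9-3hg, all on the plus strand. Mir137 is single and lies at chr3:118433857-118433929, plus strand, in an exon of Gm26871. Mir138-1 lies at chr9:122682876-122682974 in an exon of the transcribed pseudogene Gm47135, and Mir138-2 at chr8:94324311-94324381 in an exon of the non-coding gene C78859, both on the plus strand. Mir218-1 at chr5:48223942-48224051 and Mir218-2 at chr11:35616816-35616925, both on the plus strand, lie in introns of Slit2 and Slit3, which encode secreted axon guidance proteins. Mir129-1 lies at chr6:29022619-29022691, plus strand, in an exon of Gm3294, and Mir129-2 at chr2:94241364-94241453, minus strand, in an intron of Mir670hg.

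Total counts were 1429037 to 2319810 in the Sham libraries and 744877 to 1411620 in the pMCAO libraries. Levels are given as CPM, the counts of a miRNA scaled to a common library size, after scaling by TMM, edgeR's trimmed mean of log ratios between libraries, whose factors averaged 0.948 ± 0.0601 (SD, n = 6) in the Sham group and 1.07 ± 0.0454 (SD, n = 5) in the pMCAO group. With Benjamini-Hochberg adjustment of edgeR's quasi-likelihood test, 479 miRNAs passed the filter on low counts, all 8 members among them, and 34 of the 479 had an adjusted p below 0.05, 21 higher and 13 lower in pMCAO. Every adjusted p below is from this test unless another is named, and fold changes are log2 values of pMCAO over Sham. miR-223-3p, miR-142a-3p, miR-142a-5p, miR-155-5p and miR-146a-5p, 5 of 6 miRNAs listed as typical of leukocytes, were higher in pMCAO (log2 fold changes of 1.05 to 2.79), and the sixth, miR-150-5p, had a log2 fold change of −0.25 (adjusted p = 0.370).

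None of the 8 neuron-enriched miRNAs passed the threshold, and 0 of 8 stands beside 7.10% of all miRNAs tested. DESeq2 also called 0 of the 8, beside 6.98% of the miRNAs to which it gave an adjusted p. At an unadjusted p under 0.05, 4 of the 8 passed, miR-124-3p, miR-124-5p and miR-9-3p with lower and miR-129-5p with higher levels in pMCAO, beside 24.4% of all miRNAs tested. The log2 fold change was below 0 for 6 members and above 0 for 2, with a median of −0.11, beside a median of 0.00 over all 479 miRNAs. The groups did not overlap for 1 of the 8, miR-124-3p, beside 7.52% of all miRNAs tested.

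**Figure D1:**
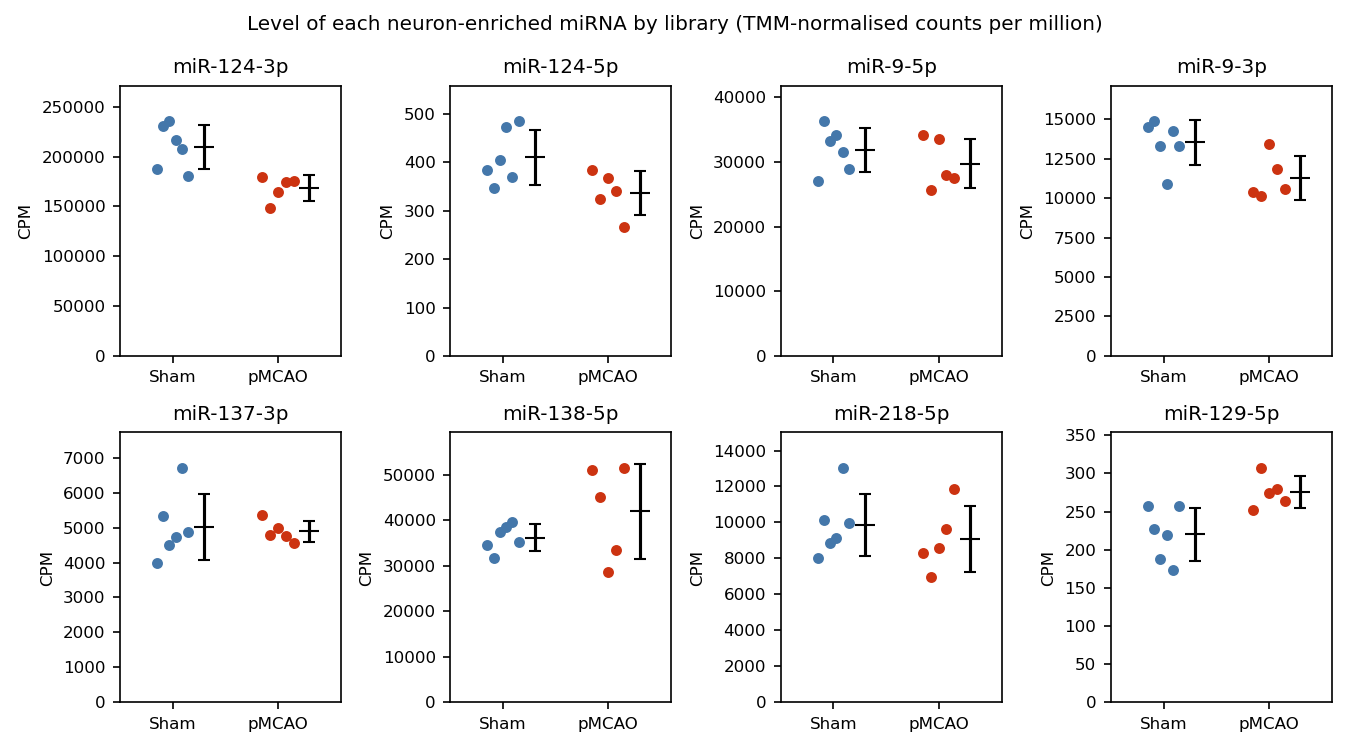
Level of each of the 8 miRNAs in CPM after TMM scaling, with 1 point per library (6 Sham, 5 pMCAO) and a bar at the group mean with its SD. The pMCAO points lie wholly below the Sham points for miR-124-3p, from 148174 to 179928 CPM against 180835 to 235591 CPM, and the groups overlap in the other panels.

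miR-124-3p was the most abundant miRNA in both groups. In Sham it ranged from 180835 to 235591 CPM with a median of 212276 CPM. In pMCAO it stood at 179928, 148174, 164976, 174100 and 175977 CPM in replicates 1 to 5. All 5 pMCAO libraries therefore lay below all 6 Sham libraries, though pMCAO replicate 1 and Sham replicate 6, the nearest pair, differed by less than either group's SD. The mean was 209811 ± 22259 CPM (SD, n = 6) in the Sham group and 168631 ± 12682 CPM (SD, n = 5) in the pMCAO group, a log2 fold change of −0.32 (SE 0.09, 95% interval −0.51 to −0.12), or −19.6%. This miRNA narrowly missed the threshold, with an adjusted p of 0.0523 and the rank 37 of 479 by p. Across 11 alternative settings of the fit, its log2 fold change ran from −0.35 to −0.14. The adjusted p in these edgeR and DESeq2 fits ran from 0.0505 to 0.228. The value of −0.14 was under total counts alone (adjusted p = 0.227). An exact permutation test, two-sided and on log2(CPM + 1), was run for each member over the 462 arrangements of the libraries. Its unadjusted p was 0.00866 for miR-124-3p, where the smallest p possible was 0.00216. With 125327 to 461709 counts, counting error was at most 0.282% of the level, far less than the CV of 10.6% among Sham and 7.52% among pMCAO libraries.

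Single libraries mattered for miR-124-3p. Without Sham replicate 6, the lowest of its group, the log2 fold change was −0.35 and passed the threshold (adjusted p = 0.0428), beside 4.24% of all miRNAs in that fit, and in the other 10 fits with 1 library left out it did not. Without pMCAO replicate 2, the library with the smallest total, it was −0.24 (adjusted p = 0.211). That library also had the highest summed level of the 6 leukocyte miRNAs, at 6649 CPM, and the lowest level of miR-124-3p. The summed leukocyte level ran from 2463 to 3787 CPM in Sham and from 3286 to 6649 CPM in pMCAO. No listed miRNA was at 0 in all libraries. In the mean of this sum, miR-150-5p, which was not higher in pMCAO, held 2735 of 3248 CPM in Sham and 2300 of 4258 CPM in pMCAO. The part of the summed leukocyte level in the level of miR-124-3p was not tested.

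miR-124-5p, the other arm of the same precursors, was far rarer. Its level ran from 346 to 485 CPM in Sham with a median of 395 CPM, and was 385, 325, 368, 341 and 267 CPM in pMCAO replicates 1 to 5. The 3 pMCAO libraries 2, 4 and 5 lay below every Sham library, and pMCAO replicates 1 and 3 lay within the Sham range. The log2 fold change was −0.29 (SE 0.13, 95% interval −0.56 to −0.01, adjusted p = 0.179). With 275 to 819 counts, counting error reached 6.03% of the level, against a CV of 13.8% among Sham libraries.

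The miR-9 arms were both abundant. miR-9-5p ranked 7 of all miRNAs in both groups, and by Sham mean it stood after miR-125b-5p and miR-138-5p and before miR-26a-5p and miR-30d-5p. It ran from 27112 to 36284 CPM in Sham with a median of 32437 CPM, and was 34148, 25604, 33544, 27967 and 27452 CPM in pMCAO replicates 1 to 5. The groups overlapped over most of their ranges, and the log2 fold change of −0.10 (SE 0.11, 95% interval −0.33 to 0.13, adjusted p = 0.666) was less than the spread between libraries. Leaving out 1 library moved it from −0.16 without pMCAO replicate 1 to −0.02 without pMCAO replicate 2.

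miR-9-3p ran from 10919 to 14877 CPM in Sham with a median of 13804 CPM. In pMCAO it was 10416, 10106, 13422, 11836 and 10561 CPM in replicates 1 to 5. Replicates 1, 2 and 5 lay below every Sham library, while replicates 3 and 4 lay within the Sham range. Its log2 fold change was −0.26 (SE 0.11, 95% interval −0.50 to −0.03, adjusted p = 0.149).

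miR-129-5p, the rarest member, had the highest fold change of the 8. It ran from 173 to 258 CPM in Sham with a median of 223 CPM, and was 252, 307, 275, 280.0 and 263 CPM in pMCAO replicates 1 to 5. All pMCAO libraries but replicate 1 lay above every Sham library. The mean was 220.3 ± 34.97 CPM (SD, n = 6) in the Sham group and 275 ± 20.8 CPM (SD, n = 5) in the pMCAO group, a log2 fold change of 0.32 (SE 0.12, 95% interval 0.06 to 0.58), or 24.9%, with an adjusted p of 0.132. In the exact permutation test, two-sided, the unadjusted p was 0.0152 for miR-129-5p. The same test gave an unadjusted p of 0.0390 for miR-9-3p and 0.0411 for miR-124-5p. For miR-9-5p, miR-137-3p, miR-138-5p and miR-218-5p it was 0.299 to 0.892. miR-129-5p had 224 to 455 counts per library, so counting error reached 6.68% of the level.

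miR-138-5p spread most among the pMCAO libraries. It ran from 31808 to 39672 CPM in Sham with a median of 36318 CPM, and was 51018, 45075, 28676, 33366 and 51531 CPM in pMCAO replicates 1 to 5. Replicates 1, 2 and 5 were above every Sham library, replicate 3 was below every Sham library, and replicate 4 lay between. The CV was 24.8% in pMCAO and 8.01% in Sham, and the log2 fold change was 0.21 (SE 0.15, 95% interval −0.10 to 0.52, adjusted p = 0.431). It was 0.12 without pMCAO replicate 1, 0.14 without replicate 5 and 0.32 without replicate 3.

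miR-137-3p and miR-218-5p had overlapping ranges in the 2 groups, and that of miR-137-3p was narrower in pMCAO. miR-137-3p ran from 3976 to 6711 CPM in Sham with a median of 4809 CPM, and was 5364, 4785, 4991, 4763 and 4568 CPM in pMCAO, with a log2 fold change of −0.04 (SE 0.12, 95% interval −0.30 to 0.23, adjusted p = 0.942). miR-218-5p ran from 8032 to 13044 CPM in Sham with a median of 9576 CPM, and was 8283, 6985, 8589, 9621 and 11876 CPM in pMCAO, with a log2 fold change of −0.12 (SE 0.15, 95% interval −0.44 to 0.20, adjusted p = 0.703). The highest Sham level of both was in replicate 5, and the intervals leave room for changes in either direction.

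**Figure D2:**
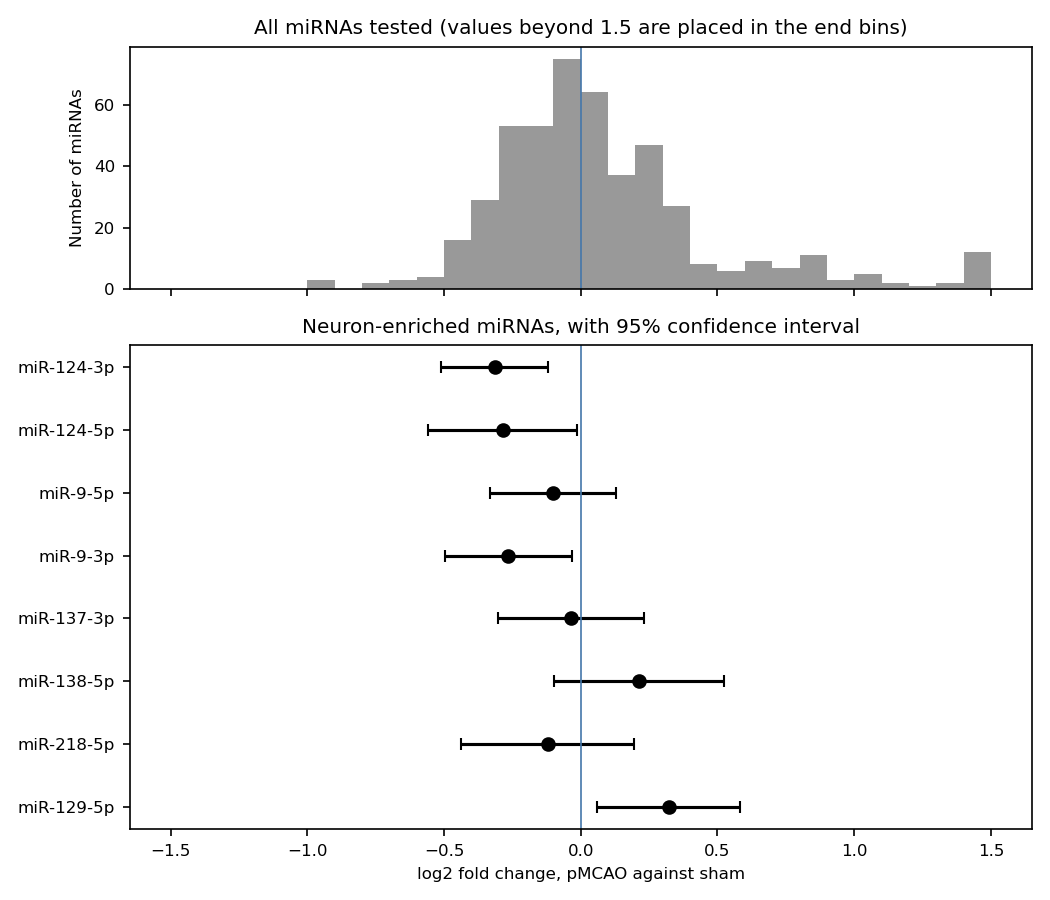
Log2 fold change of pMCAO over Sham for each of the 8 miRNAs from edgeR's quasi-likelihood fit, with its 95% interval. The point estimates run from −0.32 for miR-124-3p to 0.32 for miR-129-5p, and the intervals of miR-124-3p, miR-124-5p, miR-9-3p and miR-129-5p do not include 0.

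By mean Sham CPM the order was miR-124-3p, miR-138-5p, miR-9-5p, miR-9-3p, miR-218-5p, miR-137-3p, miR-124-5p and miR-129-5p. miR-124-3p was 5.80 times miR-138-5p and higher in 11 of 11 libraries. miR-138-5p was 1.13 times miR-9-5p, with overlapping ranges, and higher in 9 of 11 libraries, so these neighbours did not differ beyond their spread. miR-9-3p was 1.37 times miR-218-5p, again with overlapping ranges, and higher in 10 of 11 libraries. The other neighbours kept their order in 11 of 11 libraries, with steps of 2.36 times from miR-9-5p to miR-9-3p, 1.97 times from miR-218-5p to miR-137-3p, 12.2 times from miR-137-3p to miR-124-5p and 1.87 times from miR-124-5p to miR-129-5p. Such steps compare read counts, since ligation in library making can favour some sequences over others.

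As a share of all counts in a library, without any other scaling, the 8 miRNAs together took 29.0% ± 1.55 (SD, n = 6) in the Sham group and 28.4% ± 1.999 (SD, n = 5) in the pMCAO group, with overlapping ranges. miR-124-3p alone took 19.8% ± 1.27 (SD, n = 6) in the Sham group and 17.98% ± 1.06 (SD, n = 5) in the pMCAO group, a difference of −1.80 percentage points. This share overlapped between groups, from 17.9% to 21.2% in Sham and from 16.8% to 19.3% in pMCAO (exact permutation test, two-sided, unadjusted p = 0.0411). miR-129-5p took 0.0209% ± 0.00409 (SD, n = 6) in the Sham group and 0.0295% ± 0.00325 (SD, n = 5) in the pMCAO group (exact permutation test, two-sided, unadjusted p = 0.00866). For miR-138-5p the shares were 3.43% ± 0.391 (SD, n = 6) and 4.498% ± 1.20 (SD, n = 5), with an unadjusted p of 0.0887 in the exact permutation test, and for the other 5 members p was 0.299 to 0.758. Leaving miR-124-3p out of the total, the other 7 together took 11.5% ± 0.898 (SD, n = 6) in the Sham group and 12.7% ± 1.53 (SD, n = 5) in the pMCAO group.

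The choice of scaling set the sign for some members. With total counts alone the median log2 fold change over all 479 miRNAs was 0.18, and those of miR-9-5p, miR-137-3p and miR-218-5p were above 0, whereas the median was within 0.02 of 0 under TMM, DESeq2's size factors, upper-quartile scaling and TMMwsp. Relative to that median, miR-124-3p was at −0.32 under TMM and −0.31 under total counts, and miR-129-5p at 0.32 under both. A change of scaling shifts all miRNAs by nearly the same amount. This agreement therefore follows from subtracting the median and is no separate support for the changes. miR-129-5p passed the threshold under total counts alone (log2 fold change 0.49, adjusted p = 0.0468), the only one of the 8 to do so, beside 9.19% of all miRNAs.

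**Figure D3:**
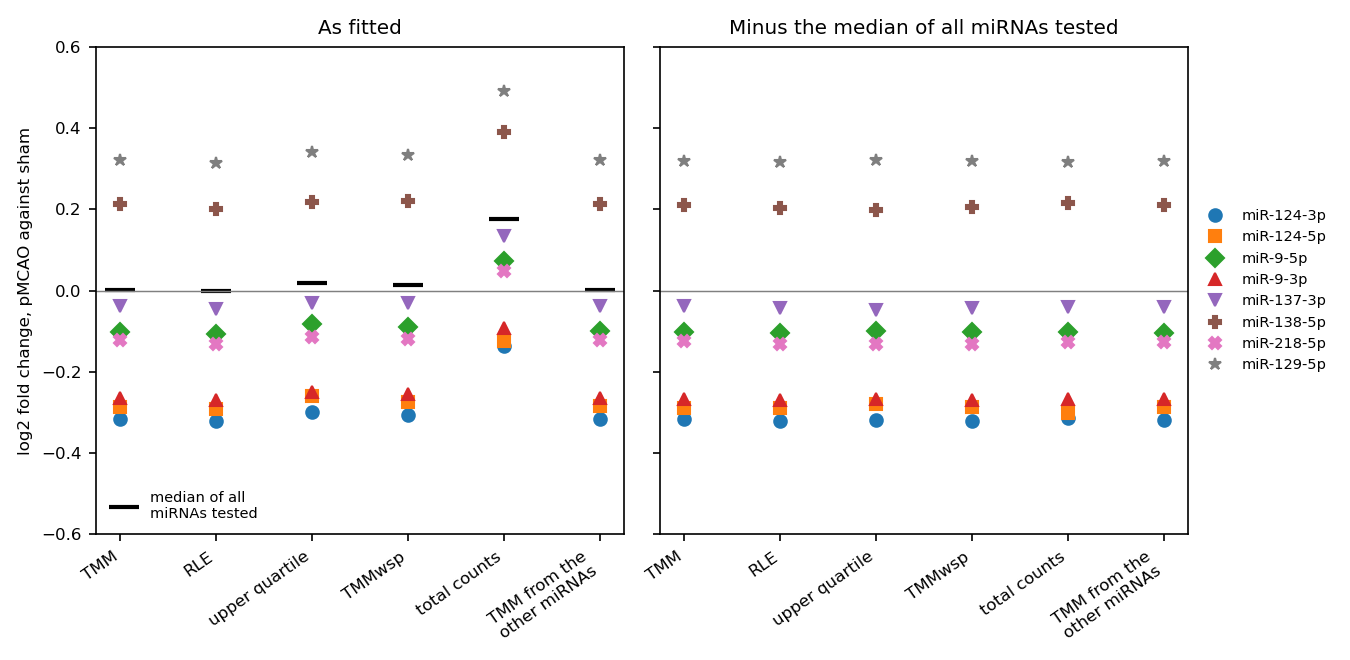
Log2 fold change of pMCAO over Sham for each of the 8 miRNAs under the different scalings of the libraries, with the median of all tested miRNAs under each. Total counts alone raise all 8 values and the median together, from 0.00 to 0.18 for the median, and the other scalings give nearly the same values.

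Ratios between members of the same library do not depend on scaling between libraries, and 7 were compared by exact permutation tests, two-sided, with Benjamini-Hochberg adjustment over the 7. The ratio of miR-124-3p to miR-9-5p was 6.92, 6.35, 7.08, 6.36, 6.57 and 6.24 in Sham replicates 1 to 6, and 5.27, 5.79, 4.92, 6.23 and 6.41 in pMCAO replicates 1 to 5. Only pMCAO replicate 5 reached into the Sham range, and replicate 4 was just under it. On the log2 scale the ratio fell by 0.21, from a geometric mean of 6.58 to 5.69 (exact permutation p = 0.0130, adjusted p = 0.0455).

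The ratio of miR-124-3p to miR-129-5p was 728, 1014, 1256, 990.02, 1195 and 701 in Sham replicates 1 to 6, and 713, 481, 600.02, 621 and 667 in pMCAO replicates 1 to 5. pMCAO replicate 1 alone lay within the Sham range. This ratio fell by 0.65 on the log2 scale, from a geometric mean of 957 to 611 (exact permutation p = 0.0130, adjusted p = 0.0455). Neither call was stable to the loss of a library. With 1 library left out, the adjusted p of the exact permutation test was 0.0333 to 0.167 for the ratio to miR-9-5p, below 0.05 only without pMCAO replicate 5, and 0.05 to 0.111 for the ratio to miR-129-5p.

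The other 3 ratios of miR-124-3p to a member of a different family also had lower means in pMCAO but did not pass. To miR-138-5p the geometric mean was 5.79 in Sham and 4.12 in pMCAO (exact permutation test, adjusted p = 0.0758), with pMCAO replicates 1, 2 and 5 at 3.53, 3.29 and 3.41 below every Sham library and replicates 3 and 4 at 5.75 and 5.22 within the Sham range. To miR-137-3p it was 42.2 and 34.4 (exact permutation test, adjusted p = 0.110), and to miR-218-5p 21.4 and 18.8 (exact permutation test, adjusted p = 0.298).

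The ratios between arms of the same family did not pass the test. The ratio of miR-124-3p to miR-124-5p had a geometric mean of 512 in Sham and 502 in pMCAO, a log2 difference of −0.03 (exact permutation test, adjusted p = 0.874), while single libraries ran from 372 to 665 in Sham and from 448 to 659 in pMCAO. The ratio of miR-9-5p to miR-9-3p was 2.36 in Sham and 2.64 in pMCAO, a log2 difference of 0.16 (exact permutation test, adjusted p = 0.298). The highest ratios were 3.12 in Sham replicate 4 and 3.28 in pMCAO replicate 1, and the lowest was 1.87 in Sham replicate 1.

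**Figure D4:**
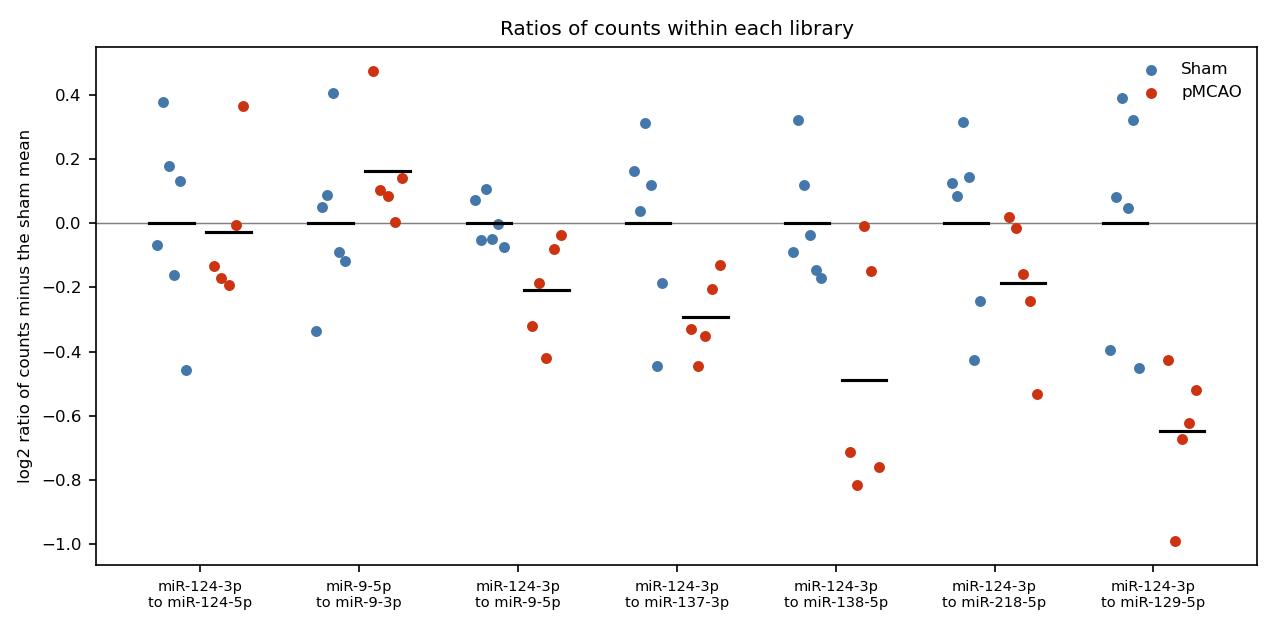
Ratio of counts within a library for 7 pairs of miRNAs, on the log2 scale, with 1 point per library and a bar at the group mean. The ratios of miR-124-3p to miR-9-5p and to miR-129-5p have lower geometric means in pMCAO, 5.69 against 6.58 and 611 against 957. The groups overlap for every pair.

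Among all pairs of members, the log2 ratio that varied least over the 11 libraries was that of miR-124-3p to miR-9-5p (SD 0.158), and the one that varied most was that of miR-9-3p to miR-138-5p (SD 0.449). Within Sham, miR-137-3p and miR-218-5p kept the closest ratio (SD 0.0388), and within pMCAO the same ratio had an SD of 0.336. Because this pair was picked for its small Sham SD, these SDs cannot show a change between groups. These values describe 11 libraries that share a total and a scaling within each library. Of 243 other miRNAs with a mean of at least 100 CPM, miR-379-5p, miR-136-5p and miR-185-5p kept the steadiest log2 ratio to miR-124-3p (SD 0.0950, 0.114 and 0.119), where the median SD was 0.316. Their own log2 fold changes were −0.30, −0.25 and −0.27. Because they were picked for a steady ratio over both groups, fold changes near that of miR-124-3p follow from the choice. For miR-9-5p the steadiest were miR-101b-3p, miR-134-5p and miR-384-3p (SD 0.136, 0.139 and 0.142), where the median SD was 0.305.

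Opposite arms of the member hairpins are shown here with the seed in capitals. For miR-138, miR-218 and miR-129 they tell the loci apart where their sequences differ. For miR-137 there is a single hairpin, so its arm separates no loci. The sequences are from RefSeq for the same assembly. miR-129-1-3p was not matched.
miR-138-1-3p: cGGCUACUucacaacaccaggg
miR-138-2-3p: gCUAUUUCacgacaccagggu
miR-218-1-3p: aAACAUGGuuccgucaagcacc
miR-218-2-3p: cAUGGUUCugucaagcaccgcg
miR-129-2-3p: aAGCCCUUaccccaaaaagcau
miR-137-5p: aCGGGUAUucuuggguggauaau

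Of the 13 names listed as other arms or related names, 9 were in the count tables and 6 passed the filter, and 0 of the 6 were called by edgeR, beside 7.10% of all miRNAs tested, with 1 at an unadjusted p under 0.05, beside 24.4%. miR-129-2-3p was the most abundant, at 4424 ± 951 CPM (SD, n = 6) in the Sham group and 4686 ± 535 CPM (SD, n = 5) in the pMCAO group, with a log2 fold change of 0.08 (adjusted p = 0.806). It exceeded miR-129-5p in 11 of 11 libraries, 15.4 to 33.8 times in Sham and 14.2 to 19.4 times in pMCAO, and exceeded miR-129-1-3p 10.9 to 26.5 times over the 11 libraries. miR-129-1-3p was at 266 ± 73.0 CPM (SD, n = 6) and 250.5 ± 45.3 CPM (SD, n = 5), which differed by −0.08 on the log2 scale (adjusted p = 0.866). miR-129-5p was thus rarer than the 3p arm of the miR-129-2 hairpin. Its log2 fold change of 0.32 stands beside 0.08 and −0.08 for the 3p arms, and the difference between arms was not tested.

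miR-138-1-3p and miR-138-2-3p, which mark the 2 miR-138 hairpins, were at similar levels. miR-138-1-3p was at 159.6 ± 12.7 CPM (SD, n = 6) in the Sham group and 164 ± 32.8 CPM (SD, n = 5) in the pMCAO group, and miR-138-2-3p at 134 ± 21.6 CPM and 154 ± 32.6 CPM, with log2 fold changes of 0.04 (adjusted p = 0.945) and 0.20 (adjusted p = 0.495). miR-138-1-3p exceeded miR-138-2-3p in 8 of 11 libraries. miR-138-5p exceeded miR-138-1-3p 197 to 287 times over the 11 libraries.

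miR-218-2-3p, from the hairpin in Slit3, was at 61.9 ± 10.5 CPM (SD, n = 6) in the Sham group and 64.0 ± 11.4 CPM (SD, n = 5) in the pMCAO group, with a log2 fold change of 0.04 (adjusted p = 0.955). miR-218-1-3p, from the hairpin in Slit2, had 3 to 10 counts and was not tested, and the ratio between them was 8.5 to 31. miR-137-5p had 5 to 18 counts, with 5.94 ± 2.35 CPM (SD, n = 6) in the Sham group and 10.4 ± 2.20 CPM (SD, n = 5) in the pMCAO group. The lowest pMCAO library was only just above the highest Sham library, and its log2 fold change was 0.84 (SE 0.31, adjusted p = 0.118).

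**Figure D5:**
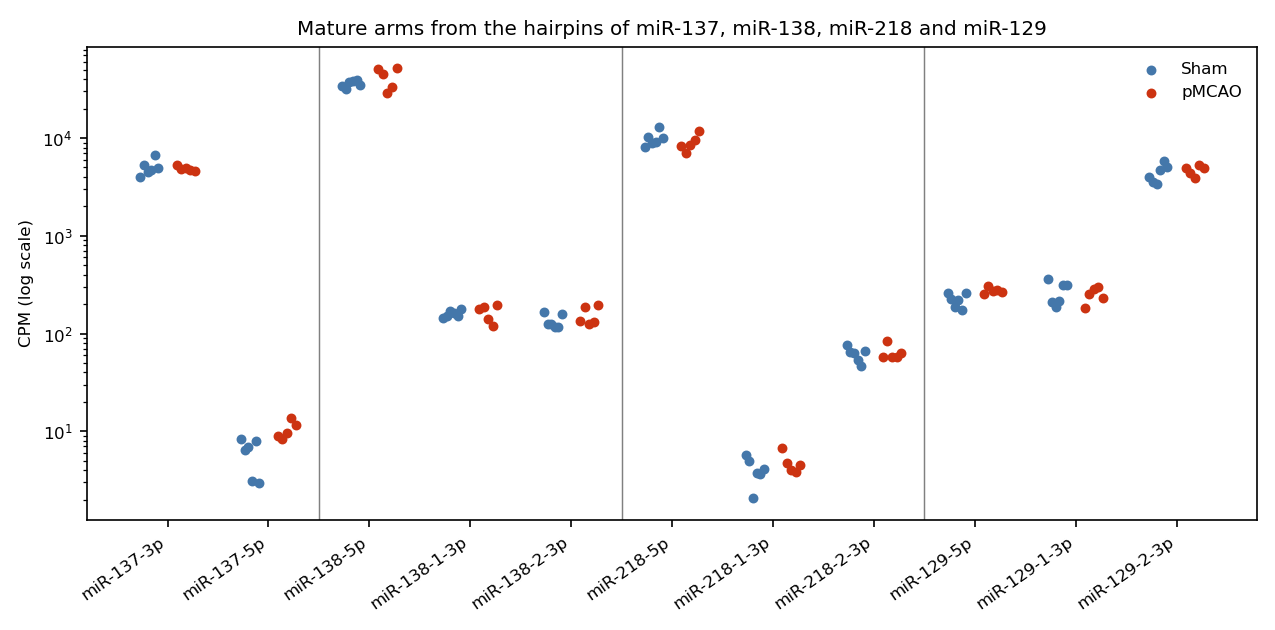
Level of arms of the member hairpins, among them those of miR-137, miR-138, miR-218 and miR-129, in CPM after TMM scaling. The axis is logarithmic, with 1 point per library for Sham and pMCAO. The 3p arm of the miR-129-2 hairpin lies 14.2 to 33.8 times above miR-129-5p.

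A wider list of 18 other neuron-enriched miRNAs, all tested, had 0 higher and 1 lower in pMCAO, beside 4.38% and 2.71% of all miRNAs tested. The log2 fold change was below 0 for 14 and above 0 for 4, with a median of −0.13, beside 0.00 over all miRNAs. The one that fell was miR-132-3p, which is induced by neuronal activity, whose level was 8599 ± 1241 CPM (SD, n = 6) in Sham libraries but 6401 ± 579 CPM (SD, n = 5) in pMCAO libraries, a log2 fold change of −0.43 (SE 0.12, adjusted p = 0.0412), with no overlap between groups. Of the 3 with the highest mean level, the others were miR-128-3p, with a log2 fold change of −0.39 (adjusted p = 0.201), and miR-212-3p, with −0.23 (adjusted p = 0.203). miR-379-5p and miR-411-5p, named here after their values were seen, also had no overlap between groups. Their log2 fold changes were −0.30 (adjusted p = 0.0959) and −0.31 (adjusted p = 0.0929). Among all miRNAs tested, 7.52% had no overlap, and 3.34% had none with pMCAO lower. At an unadjusted p under 0.05 there were 5 of the 18, beside 24.4% of all miRNAs tested. The summed level of the list was 78927 to 131318 CPM in Sham and 74187 to 107872 CPM in pMCAO. In the Sham mean of this sum, miR-128-3p held 86320 of 112739 CPM.

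Markers of other cells moved beside these values as follows. Of 3 oligodendrocyte miRNAs, miR-338-3p was lower (log2 fold change −0.54, adjusted p = 0.0453) and 0 were higher, beside 2.71% lower and 4.38% higher among all miRNAs tested, and the summed level was 4287 to 5244 CPM in Sham and 2530 to 4955 CPM in pMCAO. Of 5 endothelial and mural miRNAs 0 were called, beside 7.10% of all miRNAs tested in either direction. Their summed level was 17225 to 24453 CPM in Sham and 16484 to 22191 CPM in pMCAO. At an unadjusted p under 0.05 there was 1, beside 24.4% of all miRNAs tested. That 1 was miR-199a-3p, a miRNA of mural cells and fibroblasts named here after its values were seen, which is too rare to move the sum. It ran from 16.0 to 38.0 CPM in Sham and from 29.6 to 93.4 CPM in pMCAO, with 4 of 5 pMCAO libraries above every Sham library and a log2 fold change of 1.06 (SE 0.31, adjusted p = 0.0547). The 3 erythrocyte miRNAs summed to 48.6 to 5332 CPM in Sham, highest in replicate 1, and 637 to 4700.1 CPM in pMCAO. Of the 2 tested, 0 were called by edgeR, beside 7.10%, and 0 had an unadjusted p under 0.05, beside 24.4%. For the 5 miRNAs of liver, muscle and endocrine tissue the sums were 406 to 660 CPM in Sham and 325 to 492 CPM in pMCAO. Of the 3 tested, 0 were called by edgeR, beside 7.10%, and 2 had an unadjusted p under 0.05, beside 24.4%. These 2, named here after their values were seen, were the muscle miRNAs miR-1a-3p and miR-133a-3p. Their log2 fold changes were −0.49 (adjusted p = 0.109) and −0.45 (adjusted p = 0.0921), and that of miR-375-3p was 0.11 (adjusted p = 0.942). The part of these lists in the levels of the neuron-enriched miRNAs was not tested.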

How the data were processed

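Small RNA enriched from total RNA was sequenced on an Ion Torrent instrument. The authors removed adapters and barcodes with Torrent Suite 5.0.2, retained reads from 20 to 30 bp long, aligned these to mm10 with Bowtie and used HTSeq with the miRBase 21 annotation. The deposited values are whole-number counts per mature miRNA. How reads matching several hairpins were assigned is not given in the sources used here, and reads carry no molecular identifiers, so counting errors cover counting only.

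Samples were grouped by their labels. Labels give no separate origin beyond replicate numbers, so p-values measure the spread between these samples. The 25 pairs of libraries within groups all differed beyond sampling noise (chi-square per degree of freedom at least 17.99). The main test used edgeR 4.0.16 under R 4.3.3 (filterByExpr, minimum count 10 and minimum total 15, TMM, glmQLFit and glmQLFTest, no covariates, Benjamini-Hochberg over 479 miRNAs, threshold 0.05), limma 3.58.1 and, as an alternative, DESeq2 1.42.0. SE is the fold change over the square root of F. Ratios used log2 of counts plus 0.5. Ratios and shares were compared by exact permutation tests. The edgeR test was checked on simulated data. Members, lists and tests were chosen with earlier results of these data known. The named miRNAs were the members, their other arms, called or most abundant miRNAs of the lists, the 3 steadiest ratios and the rank neighbours of miR-9-5p. miR-199a-3p, miR-379-5p and miR-411-5p of the wider neuron-enriched list, and the miRNAs of muscle and endocrine tissue were named after their values were seen. Alternatives were other scalings, tools, filters, thresholds and pseudocounts, a replicate block, thinned counts and each library left out.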

Additional observations from a re-analysis of the deposited data

Results flagged for a closer look

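In Sham replicate 4 miR-9-3p stood at 13.4 on the log2(CPM + 1) scale, away from the other 5 Sham libraries, which ran from 13.7 to 13.9, so that its gap to the nearest of them took up most of the range of the group. Of 46 sets of values checked for such a gap, 1 had one, and chance would give about 2.3. Without this library the log2 fold change of miR-9-3p was −0.32 (edgeR adjusted p = 0.0987), beside −0.26 with it.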

How the results depend on the processing

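With total counts alone, the log2 fold changes of miR-9-5p (0.0734), miR-137-3p (0.14) and miR-218-5p (0.0496) turned positive, that of miR-129-5p (0.49) passed the threshold as the 1 member called, and 43 miRNAs were called higher and 1 lower. That of miR-137-3p was 0.0010 with at least 10 counts in every library and 0.0037 with counts thinned to the smallest total. The number of all miRNAs called lower, 13 in the report, was 4 with upper-quartile and with TMMwsp scaling, 8 with no filter, 3 with at least 10 counts in every library and 3 with thinned counts. At an adjusted p under 0.01, 12 were called higher and 2 lower, and under 0.1, 32 and 25, with 1 member, miR-124-3p. With thinned counts the log2 ratio of miR-124-3p to miR-9-5p differed by −0.22 between groups (pMCAO minus Sham), and that to miR-129-5p by −0.59. Both differences had an adjusted p of 0.0606 in the exact permutation test. The cause of these shifts was not tested.

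Leaving out 1 library at a time gave 13 to 27 miRNAs called higher (13 without Sham replicate 3), 2 to 13 lower (2 without pMCAO replicate 5, and 7 or fewer in 8 of the 11 fits) and 0 to 1 members. The log2 fold change of miR-124-3p ran from −0.35 to −0.24 and that of miR-137-3p from −0.0812 to 0.0725, positive without Sham replicate 5 (0.0725) and without pMCAO replicate 2 (0.0013). It moved by over 1.5 times, with its sign kept, for miR-9-5p (−0.16 to −0.02), for miR-138-5p (0.12 to 0.32), and for miR-218-5p (−0.22 without pMCAO replicate 5, −0.0098 without pMCAO replicate 2 and −0.0164 without Sham replicate 5), none of them called. The difference between groups (pMCAO minus Sham) in the log2 ratio of miR-124-3p to miR-9-5p ran from −0.25 to −0.16. This difference was −0.74 to −0.56 for the ratio to miR-129-5p and −0.13 to 0.0483 for the ratio to miR-124-5p. That last difference was positive without Sham replicate 2 (0.0483) or 3 (0.0087) and without pMCAO replicate 2 (0.0083) or 3 (0.01). Differences in share of counts, in percentage points, ran from −2.18 to −1.51 for miR-124-3p, from 0.0274 to 0.0804 for miR-137-3p, from 0.780 to 1.45 for miR-138-5p and from −0.0505 to 0.0959 for miR-218-5p. The unadjusted exact permutation p of the miR-124-3p share was above 0.05 in 7 of these 11 cases. It was below 0.05 for miR-137-3p without Sham replicate 5 and for miR-138-5p without pMCAO replicate 3 or 4, and the share of miR-218-5p was lower in pMCAO without Sham replicate 1 (−0.0014) or pMCAO replicate 5.

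Sham and pMCAO replicates share only a number. Deviations from the group means of same-numbered libraries correlated at −0.0768 to 0.228, over 0.1 in 3 of 5 pairs, and 1 of 5 libraries correlated best with its own number. With the replicate block, 19 miRNAs were called higher and 3 lower, and 0 members. Beyond the values above, no member changed its side of the threshold or its direction under DESeq2's size factors, TMMwsp and upper-quartile scaling, scaling from the other miRNAs, DESeq2, edgeR's robust fit, no filter or the replicate block.

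There were 6 and 5 libraries, and counting errors reached 6.03% for miR-124-5p and 6.68% for miR-129-5p. The 95% intervals remained wide, such as −0.44 to 0.20 for miR-218-5p. Changes of different size within an interval could not be told apart at this number of libraries. Levels are relative to the other miRNAs of a library, and absolute amounts were not measured.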
